A study of Mus musculus with 8 samples.

Results

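Nfat5, the calcium-regulated genes Nfatc1, Nfatc2 and Nfatc3, and the calcineurin subunit genes Ppp3ca, Ppp3cb and Ppp3r1 were followed in mouse blood stem and progenitor cells. They were chosen by gene symbol, 7 of the 53700 genes of the count table, and each symbol matched 1 row. RNA-seq libraries numbered 8, with each of 4 donor genotypes present once in each of 2 sorted populations. Haematopoietic stem cells (HSC) were CD48- CD150+ and multipotent progenitors (MPP) were CD48+ CD150-, both within the lineage-negative Sca-1+ Kit+ (LSK) gate of bone marrow.

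Donor marrow on the CD45.2 background was labelled wild-type with Nfat5 +/+ and Vav-Cre (WT), NFAT5-deficient with Nfat5 fl/fl and Vav-Cre (N5), IFNAR1-deficient (IFNAR), or deficient in both through Nfat5 fl/fl Vav-Cre and loss of IFNAR1 (DKO). Vav-Cre drives recombination in blood-forming cells. The sources used here give neither the age of the mice, nor the exons flanked by loxP sites, nor whether IFNAR donors carried Vav-Cre. Every donor sample had been passed through irradiated wild-type CD45.1 recipients, and CD45.2+ cells were sorted 13 weeks later. Each library pooled equal numbers of cells from 5 recipients, so a pool hides the spread between mice. Every direction drawn for a genotype rests on its label.

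Calcineurin is a phosphatase that is switched on by calcium and calmodulin. Its catalytic A subunit comes from Ppp3ca or Ppp3cb and its calcium-binding B subunit from Ppp3r1. It removes phosphates from the proteins made by Nfatc1, Nfatc2 and Nfatc3, which then enter the nucleus and bind DNA. Nfat5 shares the Rel-type DNA-binding domain but lacks the calcineurin-binding region, and it is best known as the activator of genes that protect cells in hypertonic surroundings. The calcium-regulated members are best known in T cells, and Nfatc1 also in osteoclasts. RNA levels do not show the phosphorylation or the location of these proteins.

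The promoters of Nfat5, Ppp3cb and Ppp3r1 are shown because Nfat5 is the gene that the labels name, Ppp3cb had the next largest fitted difference between the Nfat5 labels, and Ppp3r1 had the smallest spread among HSC libraries of the members. Each is the 250 bases before a RefSeq transcription start on GRCm38.p6, written 5′ to 3′ on the strand of the gene. They are chr8:107293220-107293469 on the plus strand, chr14:20546574-20546823 on the minus strand and chr11:17159048-17159297 on the plus strand. Capitals mark the NFAT core GGAAA or its reverse complement TTTCC.
Nfat5: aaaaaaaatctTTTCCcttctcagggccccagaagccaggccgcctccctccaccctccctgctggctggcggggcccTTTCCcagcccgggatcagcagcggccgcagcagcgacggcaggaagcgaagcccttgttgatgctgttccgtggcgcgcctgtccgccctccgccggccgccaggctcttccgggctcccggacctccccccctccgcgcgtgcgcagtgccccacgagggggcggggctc
Ppp3cb: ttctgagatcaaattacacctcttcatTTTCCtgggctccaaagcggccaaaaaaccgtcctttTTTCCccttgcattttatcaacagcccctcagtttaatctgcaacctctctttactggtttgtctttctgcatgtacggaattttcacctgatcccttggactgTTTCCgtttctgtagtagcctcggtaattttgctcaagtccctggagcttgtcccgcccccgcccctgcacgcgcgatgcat
Ppp3r1: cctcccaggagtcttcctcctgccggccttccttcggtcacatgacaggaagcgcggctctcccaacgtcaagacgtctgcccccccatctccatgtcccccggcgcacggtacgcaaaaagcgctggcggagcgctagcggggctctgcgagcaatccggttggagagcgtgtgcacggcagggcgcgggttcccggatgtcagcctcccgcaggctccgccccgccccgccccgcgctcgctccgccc

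The core occurred 2 times before Nfat5 and 3 times before Ppp3cb, and 0 times before Ppp3r1. On either strand it was found in 55.6% of 32851 promoter windows of this length, so its presence does not set a promoter apart. The longer motif TGGAAA, which holds GGAAA and is part of the NFAT5 consensus, was found in none of these 3 windows and in 18.6% of all windows. The interferon-type repeat, GAAA and GAAA spaced by NN, was found before Ppp3cb alone among the 3, in 1 copy that starts 82 bases before the start site and overlaps a GGAAA match, and in 2.98% of all windows. A match is a string of letters and was not tested for binding. RefSeq windows were read for 5 of the 7 members. Member windows on chromosome 18, where Nfatc1 lies, were left out, and no window was matched for Ppp3ca. The 4 windows of Nfatc2 and Nfatc3 are not printed.

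The libraries held 28871693 to 47205950 counts and 13510 to 14781 genes with a count. Levels are counts relative to the TMM-scaled library total (CPM), given for the labels in the order WT, N5, IFNAR, DKO where only values are listed, and their intervals are 95% exact Poisson intervals that cover counting error only. The gates carried their defining transcripts. Kit ran from 773 to 1157 CPM over all 8 libraries, Slamf1, which encodes CD150, from 52.2 to 90.0 CPM in HSC and from 0 to 0.0275 CPM in MPP, and Cd48 from 0 to 6.36 CPM in HSC and from 202 to 284 CPM in MPP. Each combination had 1 library, so the tests below take their error from libraries matched on other factors, and p-values measure only the spread between these libraries. In pools of sorted cells, fewer cells that express a gene and less RNA per cell cannot be told apart.

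**Figure D1:**
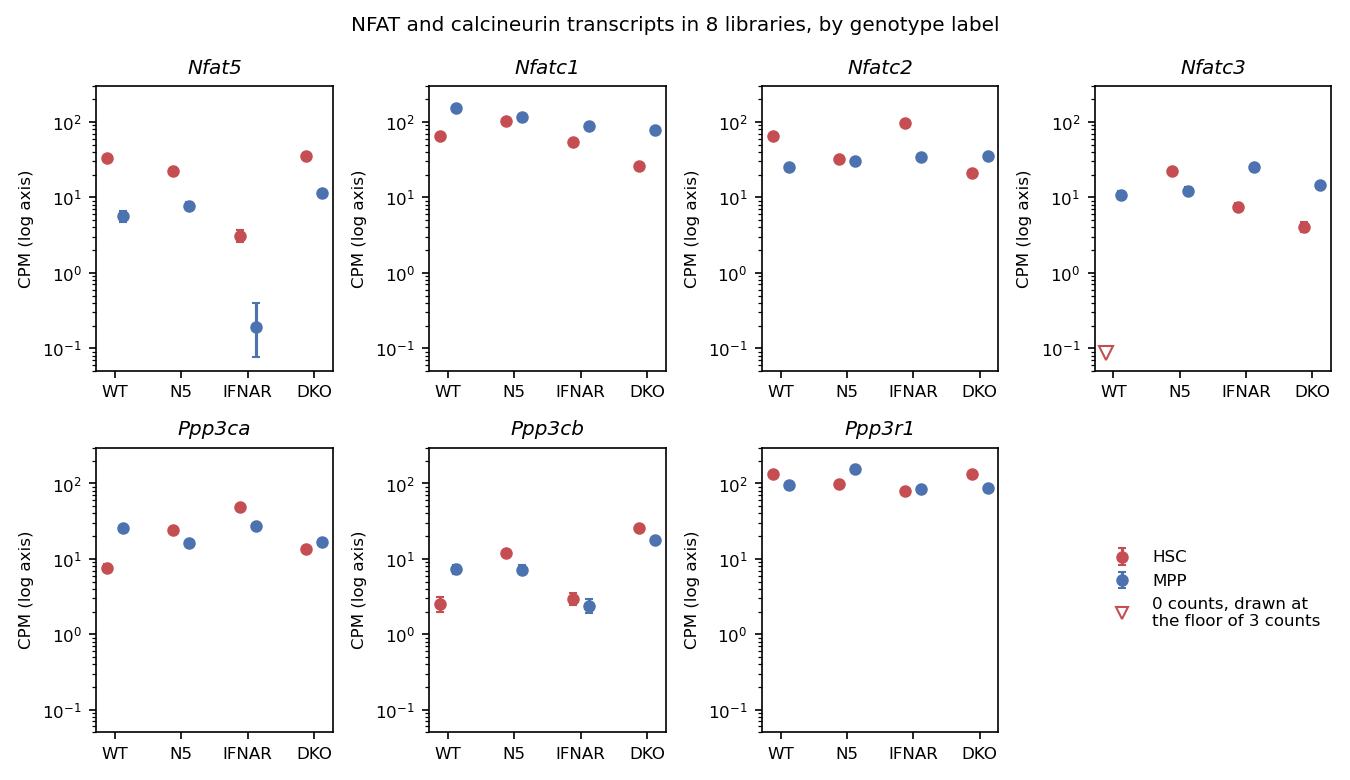
CPM of each member (log axis) by genotype label, with HSC in red and MPP in blue; bars are 95% exact Poisson intervals and the open triangle is a library with 0 counts drawn at 3 counts. Nfat5 was lowest in the libraries labelled IFNAR of both cell types, Nfatc1 was higher in MPP under each label, and Ppp3r1 stayed between 79.1 and 155 CPM.

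Nfat5 (ENSMUSG00000003847.17) did not follow its genotype labels. In HSC it had 1144 counts in the library labelled WT, 695 under N5, 122 under IFNAR and 1684 under DKO. In MPP it had 169, 219, 7 and 407 counts under the same labels. The lowest library of each cell type was thus labelled IFNAR, whose Nfat5 should be intact, and the highest was labelled DKO, whose Nfat5 should be lost.

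The HSC levels fell in the order DKO (35.5 CPM, interval 33.9 to 37.3), WT (33.2, 31.3 to 35.1), N5 (22.7, 21.01 to 24.4) and IFNAR (3.12, 2.59 to 3.72). The intervals of DKO and WT overlapped and the others did not. The MPP levels fell in the order DKO (11.5 CPM, 10.4 to 12.7), N5 (7.69, 6.71 to 8.78), WT (5.59, 4.78 to 6.50) and IFNAR (0.193, 0.0774 to 0.397), with no overlap between neighbours. Between the libraries labelled DKO and IFNAR the ratio of CPM was 11.4 in HSC (exact binomial interval 9.49 to 13.8) and 59.8 in MPP (28.8 to 150). Between those labelled N5 and WT it was 0.684 in HSC (0.621 to 0.752) and 1.37 in MPP (1.12 to 1.69). These intervals cover counting error alone, and 25.2% of the 12132 genes tested reached 10 CPM in an HSC library and had at least a 10-fold range over HSC libraries, against 13.9% in MPP.

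In the fit with cell type and both genotype labels as terms, Nfat5 was higher in the libraries labelled Nfat5-deficient by 2.21 on the log2 scale (SE 1.55), with 19.4 ± 12.5 CPM against 10.5 ± 15.3 CPM (SD, n = 4 libraries per side). It was higher in 3 of 4 pairs and did not pass (adjusted p = 1 with edgeR). The value was 1.03 without the MPP library labelled IFNAR, 1.44 without the HSC library labelled IFNAR, 3.44 without the HSC library labelled N5, 0.99 with limma-voom and 1.07 with bias-adjusted edgeR. The difference itself differed between libraries with and without the Ifnar1 label by 4.51 (SE 1.90), which did not pass in edgeR (unadjusted p = 0.0612, adjusted p = 1), where 0% of genes passed, and passed in DESeq2 (4.50, adjusted p = 0.0399), where 3.24% did. The difference between HSC and MPP in the Nfat5 label effect was -1.17 (SE 2.52, adjusted p = 1 with edgeR). Counts summed over a gene cannot separate deleted exons from the exons that remain, so whether the allele was deleted in these pools was not tested.

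The cell types separated Nfat5 in the same direction under every label. The ratio of HSC to MPP was 5.93 under WT (interval 5.04 to 7.01), 2.95 under N5 (2.53 to 3.45), 16.2 under IFNAR (7.62 to 41.1) and 3.09 under DKO (2.77 to 3.45). Mean levels were 23.6 ± 14.8 CPM in HSC and 6.25 ± 4.73 CPM in MPP (SD, n = 4 libraries each), and the ranges overlapped through the HSC library labelled IFNAR. The fitted log2 difference was 2.40 (SE 0.99), which did not pass in edgeR (unadjusted p = 0.0567, adjusted p = 0.513). DESeq2 called it (2.40, adjusted p = 0.00595), as it did 15.5% of all genes tested. All 4 pairs pointed one way, in either direction, for 21.8% of genes.

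Nfatc1 (ENSMUSG00000033016.17) lay the other way. The HSC libraries had 65.3, 105, 53.5 and 26.2 CPM of it, and the MPP libraries 152, 115, 89.1 and 78.0 CPM. MPP exceeded HSC under each label, by 2.33-fold (2.22 to 2.45) under WT, 1.099-fold (1.05 to 1.15) under N5, 1.67-fold (1.58 to 1.76) under IFNAR and 2.98-fold (2.79 to 3.19) under DKO. The fitted log2 difference of HSC to MPP was -0.92 (SE 0.32), not called by edgeR (unadjusted p = 0.0316, adjusted p = 0.422) and called by DESeq2 (-0.89, adjusted p = 0.0349). The sum over 9 T cell marker genes, of which 1 passed the filter, was 40.9 to 86.5 CPM in MPP against 0 to 15.3 CPM in HSC. Most of the MPP sum was the kinase gene Lck. Cd3d, Cd3e and Cd3g, which encode chains of the T cell receptor complex, had 0 counts in all 8 libraries. Cd247 of the same list had 8.32 CPM in the HSC library labelled DKO and 0 CPM in the others. Among MPP libraries, Cd8a reached 10.1 CPM under IFNAR, Cd5 6.09 CPM under WT and Cd4 5.97 CPM under N5. Markers of monocytes and osteoclasts summed to 43.9 to 113 CPM over 6 genes in MPP and to 9.30 to 25.7 CPM in HSC. The osteoclast genes Ctsk and Calcr had 0 counts in all 8 libraries, but Acp5 of the same list was present in each. Acp5 had 9.27 to 13.1 CPM in HSC and 6.16 to 19.5 CPM in MPP. Csf1r ran from 0.737 to 73.5 CPM in MPP, and Ccr2 from 24.6 to 42.7 CPM. In HSC, Csf1r reached 0.029 CPM and Ccr2 had 0 CPM. Whether T cells, monocytes or osteoclasts were present, or had a part in the Nfatc1 difference, was not tested.

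Nfatc1 was the member whose pairs all pointed one way for the Ifnar1 label. It was lower in the libraries labelled IFNAR and DKO in 4 of 4 pairs, with 61.7 ± 28.0 CPM against 109 ± 35.8 CPM (SD, n = 4 libraries per side). Within each cell type the 2 libraries with the label lay below the 2 without it, a separation in either direction seen for 33.1% of genes in HSC and 33.8% in MPP. In MPP the label also separated Nfatc2 and Nfatc3, which were higher with it, and Ppp3r1, which was lower. The fitted log2 difference was -0.91 (SE 0.32), which did not pass in edgeR (unadjusted p = 0.0295, adjusted p = 1) or in DESeq2 (adjusted p = 0.132). All 4 of these pairs pointed one way, in either direction, for 12.1% of genes, and for 1 of 7 members.

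Nfatc2 (ENSMUSG00000027544.17) split the HSC libraries and barely moved in MPP. In HSC it had 65.8 CPM under WT, 32.4 under N5, 95.6 under IFNAR and 20.9 under DKO. In MPP it had 25.1, 30.4, 33.9 and 35.7 CPM in that order, a 1.42-fold range against 4.57-fold in HSC. The HSC libraries labelled Nfat5-deficient therefore lay below the others, with ratios of 0.492 for N5 over WT (0.457 to 0.531) and 0.219 for DKO over IFNAR (0.204 to 0.235). In MPP the same ratios were 1.21 (1.096 to 1.33) and 1.05 (0.972 to 1.14). Separation of HSC libraries by the Nfat5 label, in either direction, was shared by 32.9% of genes, and the difference between cell types in the label effect was -1.74 on the log2 scale (SE 0.84, unadjusted p = 0.0922, adjusted p = 1 with edgeR).

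B cell markers moved with Nfatc2 over the HSC libraries. Their sum over 6 genes was 59.8, 34.7, 103 and 28.0 CPM under WT, N5, IFNAR and DKO, and 51.3 to 83.9 CPM in MPP. Most of the HSC sum came from Cd79b, whereas Pax5, which encodes a transcription factor that defines B cells, had 0 counts in all 4 HSC libraries. Ms4a1 had 11.8 CPM in the HSC library labelled IFNAR, and Cd79a had 3.93 CPM in the one labelled DKO. The part of B-lineage RNA in the Nfatc2 pattern was not tested.

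Nfatc3 (ENSMUSG00000031902.11) had 0 counts in the HSC library labelled WT and 691, 296 and 191 counts under N5, IFNAR and DKO. Those 3 libraries had 22.5, 7.56 and 4.03 CPM. The lower limit of the exact binomial interval for N5 over WT in HSC was 210-fold. Such gaps were common in this cell type: 15.9% of genes tested had 0 counts in an HSC library and at least 10 CPM in another, against 7.67% in MPP. In MPP the gene had 10.8, 12.2, 25.04 and 14.4 CPM. Its fitted difference of HSC to MPP was -2.09 (SE 2.22, adjusted p = 0.877 with edgeR). It was -0.95 with the HSC or the MPP library labelled WT left out, -3.32 without the HSC library and -3.31 without the MPP library labelled N5, -0.87 with no genotype block and -1.04 with bias-adjusted edgeR.

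Ppp3ca (ENSMUSG00000028161.18), the catalytic alpha subunit, stood at 7.62, 24.5, 49.4 and 13.6 CPM in HSC. In MPP it stood at 26.04, 16.3, 27.1 and 16.6 CPM. The MPP libraries fell into 2 levels, with both libraries labelled Nfat5-deficient below both others, while in HSC the labels overlapped. Separation of MPP libraries by this label, in either direction, was seen for 32.9% of genes. Its cell types did not separate (23.8 ± 18.5 against 21.5 ± 5.85 CPM, SD, n = 4; log2 difference -0.13, SE 0.81, adjusted p = 0.988 with edgeR).

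Ppp3cb (ENSMUSG00000021816.12), the catalytic beta subunit, had the next largest fitted difference between the Nfat5 labels after Nfat5 itself. It had 2.49 CPM under WT, 11.9 under N5, 2.96 under IFNAR and 25.3 under DKO in HSC, and 7.28, 7.20, 2.39 and 18.0 CPM in MPP. The libraries labelled DKO were the highest of each cell type. The ratio of DKO to IFNAR was 8.54 in HSC (7.05 to 10.4) and 7.50 in MPP (5.99 to 9.49), and that of N5 to WT was 4.76 in HSC (3.76 to 6.10) and 0.989 in MPP (0.814 to 1.20). Over all libraries the labels stood at 15.6 ± 7.84 CPM with Nfat5 deficiency and 3.78 ± 2.34 CPM without (SD, n = 4 libraries per side). The fitted difference was 2.02 (SE 1.07) and did not pass (unadjusted p = 0.105, adjusted p = 1 with edgeR, and adjusted p = 0.253 with DESeq2).

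**Figure D2:**
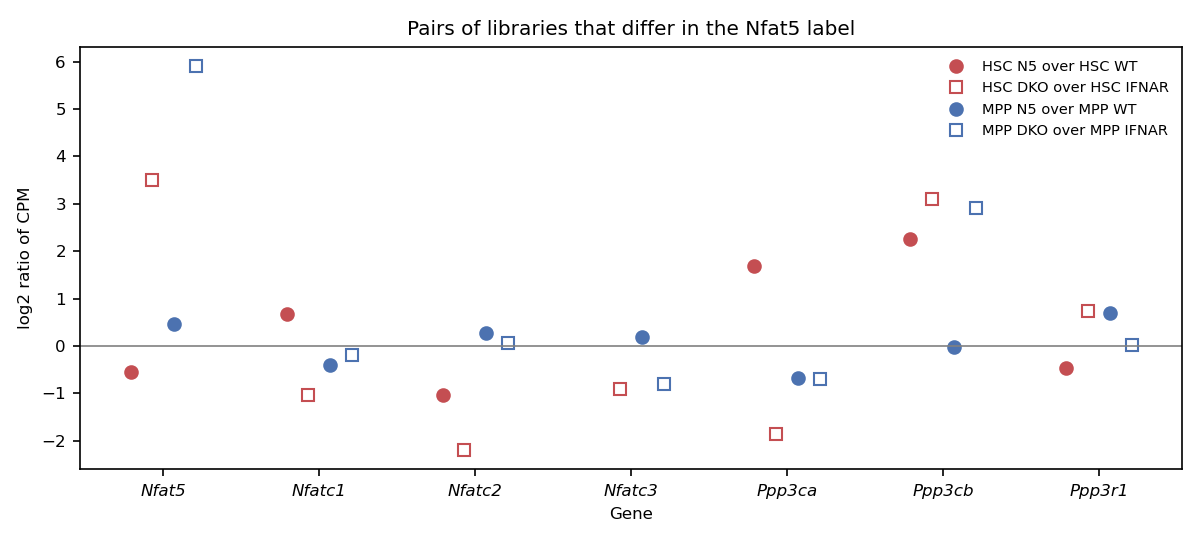
Log2 ratio of CPM for each member in the 4 pairs of libraries that differ in the Nfat5 label, with filled circles for N5 over WT, open squares for DKO over IFNAR, red for HSC and blue for MPP; the HSC pair of N5 over WT has no point for Nfatc3, which had 0 counts under WT. Nfat5 and Ppp3cb had their largest ratios in the DKO over IFNAR pairs, and Nfatc2 was below 0 in both HSC pairs only.

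Ppp3r1 (ENSMUSG00000033953.11), the regulatory B subunit, was the steadiest member in HSC. Its HSC levels were 134, 97.1, 79.1 and 132 CPM, and its MPP levels were 96.3, 155, 84.9 and 86.5 CPM. The cell types had 111 ± 27.0 and 106 ± 33.4 CPM (SD, n = 4), with a log2 difference of 0.08 (SE 0.28, adjusted p = 0.977 with edgeR). In an earlier annotation (GENCODE M21), 14.3% of its exon bases are shared with Wdr92 on the same strand. Wdr92 had 312 to 1518 counts against 2909 to 6261 for Ppp3r1, so some reads may belong to either gene.

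Across members, 0 of 7 were called by edgeR between HSC and MPP, where 0.0165% of the 12132 genes tested were called. All 7 members passed the filter on low counts. An unadjusted p under 0.05 was reached by Nfatc1 alone in edgeR, against 10.1% of all genes. DESeq2 called Nfat5 and Nfatc1, against 15.5% of all genes. Members had a median log2 difference of 0.03, beside -0.10 over all genes. For the Nfat5 label edgeR called 0 of 7 members and 0% of all genes, and 0 members had an unadjusted p under 0.05, against 2.79% of all genes. For the Ifnar1 label edgeR called 0 of 7 members and 0% of all genes, and Nfatc1 alone had an unadjusted p under 0.05, against 3.28% of all genes. DESeq2 called 0 members for the Nfat5 label, against 1.37% of all genes, and 0 for the Ifnar1 label, against 1.92%. For the interactions, 0 members had an unadjusted p under 0.05 in edgeR, against 4.42% of genes by cell type and 3.33% by Ifnar1 label, and DESeq2 called 0 members by cell type, against 4.82% of genes. Pairs differing in the Nfat5 label all pointed one way for 0 of 7 members and 11.1% of genes. The ranges of 4 libraries against 4 overlapped for all 7 members between HSC and MPP, between the Nfat5 labels and between the Ifnar1 labels, whereas 10.4%, 2.27% and 2.38% of genes had none. Separation of the 2 libraries with the Nfat5 label from the 2 without was seen for Nfatc2 and Ppp3cb in HSC and for Nfat5 and Ppp3ca in MPP, 2 of 7 members in each, a share near that of all genes, which was 32.9% in both cell types.

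**Figure D3:**
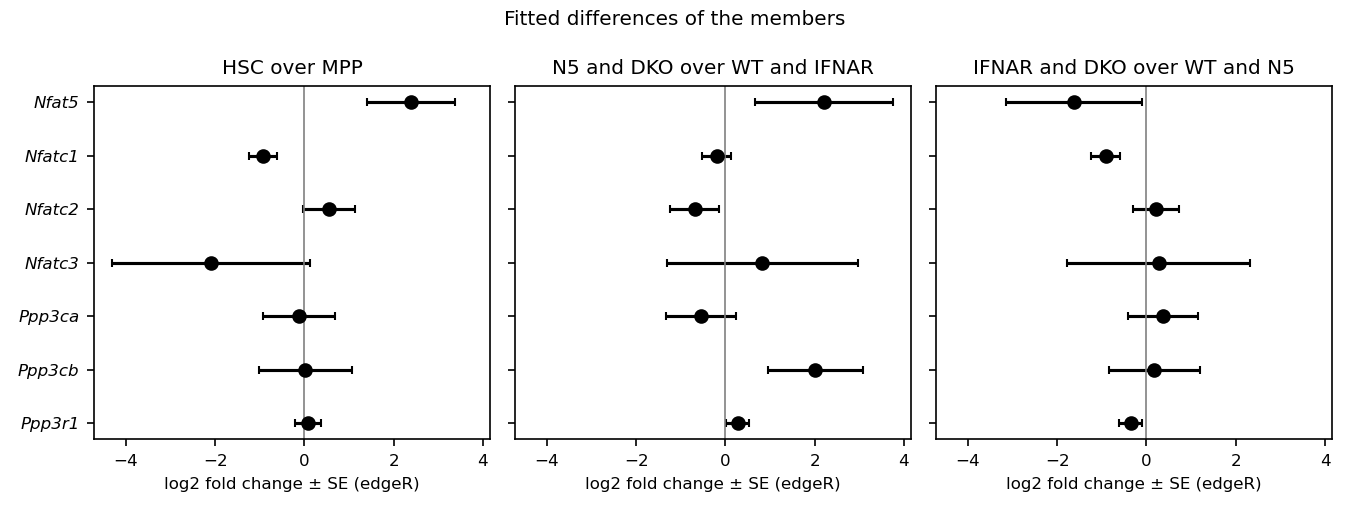
Fitted log2 fold change with its SE (edgeR) of each member in 3 comparisons, HSC over MPP, libraries labelled N5 and DKO over WT and IFNAR, and libraries labelled IFNAR and DKO over WT and N5. None passed at an adjusted p of 0.05; between HSC and MPP, Nfat5 stood at 2.40 and Nfatc1 at -0.92.

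The spread among libraries differed between members. On the log2 scale after 2 counts were added, Nfatc3 and Nfat5 had an SD of 3.77 and 1.65 over the HSC libraries, and Ppp3r1 had 0.37, against a median of 0.79 over all genes tested, which puts them at the 84.1, 69.8 and 19.9 percentiles of those genes. Over the MPP libraries Nfat5 had an SD of 2.54 and Nfatc2 of 0.22, against a median of 0.59, at the 85.3 and 12.7 percentiles. The low MPP library labelled IFNAR, with 7 counts, sets the value of Nfat5.

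Levels of different genes were compared per kilobase of exon, from GENCODE M21 on GRCm38, whereas the counts were made on GRCm39. On this scale Ppp3r1 was the highest member in all 8 libraries, with 34.3 ± 8.38 CPM per kb in HSC and 32.8 ± 10.3 in MPP (SD, n = 4). Nfatc1 followed in 7 of 8 libraries, with 8.35 ± 4.36 CPM per kb in HSC and 14.5 ± 4.42 in MPP, and Nfatc2 stood above it in the HSC library labelled IFNAR. Ppp3ca had 2.38 ± 1.85 CPM per kb in HSC and 2.16 ± 0.586 in MPP, and Ppp3cb had 1.21 ± 1.21 and 0.988 ± 0.746, so the catalytic transcripts lay well under the regulatory one in each library. Nfat5, whose exons span 18.4 kb in all, was the lowest member in all 4 MPP libraries at 0.340 ± 0.257 CPM per kb, and stood at 1.29 ± 0.804 in HSC. With the length of the longest coding transcript in place of all exon bases, a choice made after the data were seen, Ppp3r1 was again highest in all 8 libraries, and Ppp3cb passed Nfatc1 in the HSC library labelled DKO.

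**Figure D4:**
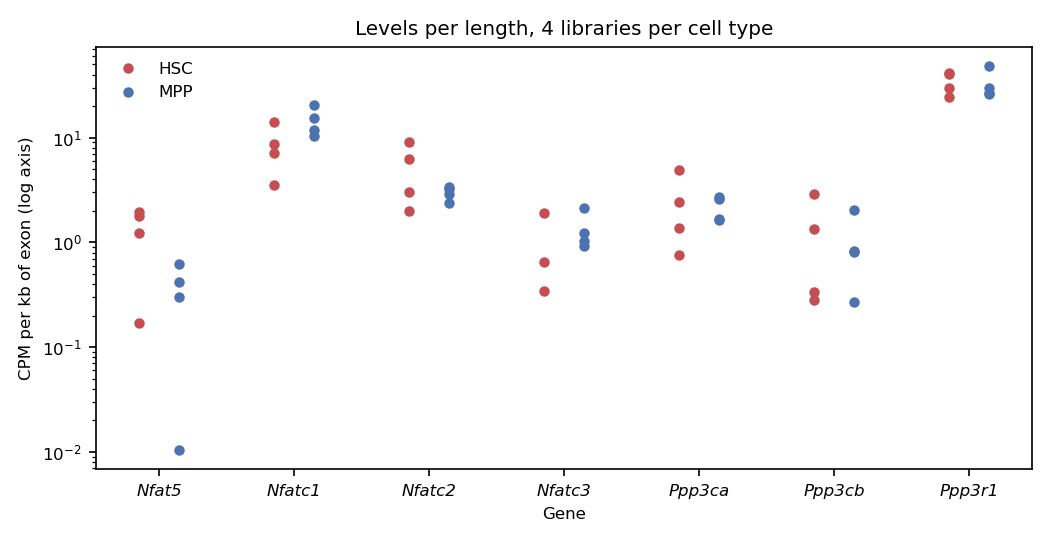
CPM per kilobase of exon (log axis) of each member, with 1 point per library, HSC in red and MPP in blue; the HSC library with 0 counts of Nfatc3 is not drawn. Ppp3r1 lay above every other member in all 8 libraries, and Nfat5 was lowest in the MPP libraries.

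Likeness of pattern was measured as the correlation of log2 CPM over the 8 libraries, among 8838 named protein-coding genes with a mean of at least 10 CPM. Those nearest to Nfat5 were Znrf3 (Pearson 0.975, Spearman 0.905), Pxmp4 (0.969, 0.881) and Dennd6a (0.964, 0.881). Like Nfat5, these 3 genes were lowest in the library labelled IFNAR of each cell type, and Dennd6a had 3.14 CPM there in HSC and 0.138 CPM in MPP. The gene nearest to Nfatc1 was Mcm2, a subunit of the replicative helicase, which ran from 258 CPM in the HSC library labelled DKO to 639 CPM in the MPP library labelled WT (0.981, 0.976). Nearest to 4 others were Xrcc5 for Nfatc2 (0.958, 0.952), Bud13 for Nfatc3 (0.995, 0.929), Nsun5 for Ppp3cb (0.924, 0.952) and Runx2 for Ppp3r1 (0.891, 0.857). These are descriptions over n = 8 libraries that differ in cell type, genotype label and depth, and the nearest of many candidates is high by choice.

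The rest of the pathway was read from 7 lists, and 0 of their genes were called by edgeR between HSC and MPP or for either label. The paralogs Nfatc4 and Ppp3r2 had 0 counts in all 8 libraries. Ppp3cc, the catalytic gamma subunit, had HSC levels of 21.8, 0, 0 and 17.0 CPM and MPP levels of 9.79, 0, 9.02 and 1.39 CPM. Nfatc2ip, which encodes a protein that binds Nfatc2, had 21.5, 0, 0 and 9.73 CPM among HSC, against 0.629, 0.808, 1.40 and 15.6 CPM among MPP.

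Of 11 inhibitors, scaffolds and drug-binding partners of calcineurin, 5 passed the filter, with 2 higher and 3 lower in HSC. Their median log2 difference was -0.27, beside -0.10 for all genes. DESeq2 called 1 of the 5 lower, against 15.5% of all genes called in either direction. Rcan1, a calcineurin inhibitor that is itself a classical NFAT target, had 0 counts in all 8 libraries. Rcan3, of the same family, had 57.3 ± 38.0 CPM among HSC, against 34.5 ± 19.1 CPM in MPP, and Cabin1, another inhibitor, had 107 ± 52.0 and 125 ± 23.1 CPM (SD, n = 4). The immunophilin gene Ppia, whose product binds cyclosporin, had 2095 ± 204 and 2817 ± 162 CPM, and Fkbp1a, whose product binds tacrolimus, had 240.3 ± 51.0 and 284 ± 8.36 CPM.

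Of 4 calmodulin genes, the calcium sensors that switch calcineurin on, 3 passed the filter and all 3 had lower values in HSC (median -0.48). DESeq2 called 1 of the 3, against 15.5% of all genes. Calm2 had 615 ± 61.9 CPM in HSC and 882 ± 87.0 in MPP, and Calm3 had 61.5 ± 21.7 and 82.4 ± 7.19 (SD, n = 4). All 8 kinases that phosphorylate NFAT proteins or prime them for it passed the filter, with 4 higher and 4 lower in HSC (median 0.02). Csnk1d had 253 ± 106 CPM in HSC and 173 ± 35.4 in MPP, Csnk1e 20.2 ± 10.7 and 12.3 ± 12.5, Dyrk1b 3.21 ± 4.93 and 4.77 ± 5.25, and Gsk3a 0.414 ± 0.603 and 1.53 ± 1.41.

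Of 13 genes of calcium entry and release, 10 passed the filter, with 4 higher and 6 lower in HSC (median -0.08). DESeq2 called 1 of the 10 lower in HSC, against 15.5% of all genes called in either direction. The calcium channel gene Orai1 had 24.98 ± 17.3 CPM among HSC, against 11.7 ± 8.50 in MPP, and edgeR called neither it nor Stim2. The store sensor gene Stim2 had 0 counts in 3 HSC libraries and 22.4 CPM in the one labelled DKO, and 1.29, 4.14, 7.81 and 2.38 CPM in MPP. The inositol trisphosphate receptor genes were not called by edgeR. Itpr1 had 23.3 ± 20.3 CPM in HSC against 32.0 ± 7.36 in MPP, Itpr2 14.1 ± 15.01 against 15.1 ± 11.97, and Itpr3 6.82 ± 2.30 against 13.0 ± 6.71. For the Nfat5 label, 9 of these 10 had higher values in the libraries labelled Nfat5-deficient (median 0.62, beside 0.02 for all genes), and edgeR and DESeq2 called 0 of them.

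Of 5 genes of NFAT transport and cytoplasmic retention, 4 passed the filter (median 0.19 for HSC over MPP). The exportin gene Xpo1 had 113 ± 41.3 CPM in HSC and 172 ± 47.5 in MPP, the importin gene Kpnb1 60.5 ± 34.3 and 96.9 ± 32.5, Homer3 39.4 ± 12.9 and 22.6 ± 14.5, and Lrrk2 13.1 ± 15.8 and 5.50 ± 6.71 (SD, n = 4).

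Of 11 osmotic targets of NFAT5, 8 passed the filter. Relative to the Nfat5 label, 6 of 8 had lower values in the libraries labelled Nfat5-deficient (median -1.10, beside 0.02 for all genes). Of these 8, edgeR called 0 and DESeq2 called 1 lower, against 1.37% of all genes called by DESeq2. Akr1b3, Slc38a2 and Slc6a6, with at least 44.2 CPM in every library, had log2 differences of 0.08, -0.31 and -0.68. Aqp1, at 0 CPM in the HSC library labelled IFNAR, had 1.17. Relative to the Ifnar1 label, 6 of 8 also had lower values (median -1.02), with 0 called by either tool; the label comparisons use the same 8 libraries. Sgk1, a kinase gene, had HSC levels of 59.3, 0, 43.0 and 0 CPM and MPP levels of 8.87, 1.16, 6.49 and 0 CPM. S100a4, which encodes a calcium-binding protein, had 11.3, 0, 22.3 and 6.38 CPM among HSC, against 10.7, 2.67, 13.1 and 8.13 CPM in MPP. Hspa1a, a heat shock gene, had 19.3, 0, 0 and 0 CPM among HSC, against 24.0, 11.7, 23.4 and 9.74 CPM in MPP. The inositol transporter gene Slc5a3 had 6.17, 1.96, 16.8 and 0.106 CPM among HSC, against 9.50, 28.2, 0.0550 and 1.56 CPM in MPP.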

How the data were processed

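The authors deposited 1 table of read counts per gene for 8 libraries of poly(A) RNA made with Smart-Seq2, per the labels' protocols, with no molecular identifiers and no strand. STAR 2.7.8a, RSEM 1.3.0 and GRCm39 are named in the submitters' processing notes. The deposited counts are whole numbers. Genes were kept with edgeR's filterByExpr by cell type (12132 of 53700, holding 99.5% of the counts), scaled by TMM and tested with edgeR 4.0.16 (quasi-likelihood) in R 4.3.3, with Benjamini-Hochberg adjustment over all genes tested at 0.05. HSC and MPP were compared within genotypes, leaving 3 residual degrees of freedom. The Nfat5 and Ifnar1 labels were compared with cell type and the other label as terms (4), and interactions were added as terms (3). DESeq2 1.42.0 and limma-voom 3.58.1 were alternatives. Log2 levels were taken after adding 2 counts. All 7 members are reported, with up to 4 genes per list by size of the HSC to MPP difference, and the nearest gene to each member (3 for Nfat5). The other osmotic targets that passed the filter are given for the Nfat5 label. A few results that these rules would name are not reported here. Members and lists were chosen with earlier results of these data known. Exon lengths and overlaps came from GENCODE M21 (GRCm38) and promoters from RefSeq (GRCm38.p6); no coordinates were carried between builds.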

Additional observations from a re-analysis of the deposited data

Results flagged for a closer look

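Ppp3r1 in the MPP library labelled N5 stood at 155 CPM, far from the other 3 MPP libraries at 84.9 to 96.3 CPM. It was the only one of 14 sets of 4 libraries (7 members in 2 cell types) with such a gap by Dixon's rule. That rule allows about 1 such gap in 20 sets when all 4 values come from the same normal distribution. Here the 4 libraries differ in genotype label and the sets share libraries, so that rate does not measure chance for these data.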

How the results depend on the processing

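HSC and MPP were paired by genotype, and no pairing by replicate number was possible because each group had 1 library and the labels carry no such numbers. Between HSC and MPP, 2 genes were called by edgeR, against 23 with a filter at 10 CPM, 1880 with DESeq2, 156 with limma-voom, 107 with bias-adjusted edgeR, 207 with no genotype block, and 0 to 0 when 1 library was left out; DESeq2 called 2 members. DESeq2 called 166 genes for the Nfat5 label, 233 for the Ifnar1 label (limma-voom 1, bias-adjusted edgeR 1), 585 for the Nfat5 label by cell type and 393, with 1 member, for the Nfat5 label by Ifnar1 label. Ppp3ca between HSC and MPP turned to 0.36 with limma-voom, 0.094 with bias-adjusted edgeR and 0.14 with no genotype block, and Nfat5 for the Ifnar1 label to 0.039 with limma-voom; the cause was not tested. With 1 library left out, the sign changed between HSC and MPP for Ppp3ca (-0.49 to 0.39), Ppp3cb (-0.23 to 0.51) and Ppp3r1 (-0.10 to 0.33). It changed for the Nfat5 label for Nfatc1 (-0.52 to 0.027), Nfatc3 (-0.14 to 1.80) and Ppp3ca (-1.003 to 0.045), and for the Ifnar1 label for Nfatc2 (-0.16 to 0.54), Nfatc3 (-0.47 to 2.33), Ppp3ca (-0.12 to 0.84) and Ppp3cb (-0.20 to 0.88). Nfat5 for the Nfat5 label by cell type ranged from -4.45 to 1.13. Between HSC and MPP, direction was kept in all alternatives run by Nfat5 (1.91 to 2.704), Nfatc1 (-1.18 to -0.70), Nfatc2 (0.23 to 0.997) and Nfatc3 (-3.32 to -0.87). Direction was also kept by Nfat5, Nfatc2, Ppp3cb and Ppp3r1 for the Nfat5 label, and by Nfatc1 and Ppp3r1 for the Ifnar1 label. Ppp3cb had no value under the filter at 10 CPM.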
